A study of Mus musculus with 6 samples.

Results

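This report describes 10 genes for core proteins of the basement membrane in infarcted mouse hearts. They are the type IV collagen genes Col4a1 and Col4a2, the laminin chain genes Lamc1, Lama2 and Lamb1, the nidogen genes Nid1 and Nid2, the perlecan gene Hspg2, and Col15a1 and Col18a1, which encode collagens attached to basement membranes. The genes were chosen by name, but with earlier results of these data known, so counts among them beside shares of all features are a description. All 10 were found by symbol among the 19505 gene symbols of the array annotation, each with 1 array feature. RNA of whole hearts from 6 male mice was measured on mouse Clariom S arrays, 1 array per heart, after ligation of the left coronary artery. The labels give an age of 8 weeks for the experiments, which cannot be the age when hearts were taken, 2 or 3 months after infarction. TTg hearts carried Tcf21iCre, Tomato and MGTH2A and were taken 3 months after infarction (n = 2). Ctrl hearts carried Tcf21iCre and Tomato alone and were taken 3 months (n = 2) or 2 months (n = 2) after infarction, so both alleles were present in every heart. Tcf21, after which the Cre allele is named, is a gene of cardiac fibroblasts, and Tomato is a fluorescent reporter. MGTH2A encodes Mef2c, Gata4, Tbx5 and Hand2, transcription factors of the heart that are used together to reprogram fibroblasts toward cardiomyocytes. Mice whose ejection fraction stayed above the labels' limit at 2 days had been removed. The labels call the hearts independent biological replicates.

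A basement membrane is a thin sheet of matrix that surrounds each cardiomyocyte and lies beneath the endothelium of each vessel. It is built from a laminin network held at the cell surface by integrins and dystroglycan, and from a type IV collagen network, with nidogens and perlecan linking them. After infarction the vessels, surviving cardiomyocytes and fibroblasts of the heart can all contribute to this matrix. In whole-heart RNA, fewer cells of a type and less RNA per cell cannot be told apart.

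The values are the deposited log2 signals, on which a difference of 1 is a 2-fold change. Array medians lay between 4.91 and 5.0 over 22206 features, and replicates correlated over features at 0.984 to 0.989. Myl2, a cardiomyocyte gene, was at 19.93 on all arrays, near the top of the scale, and Myh6 lay between 18.8 and 19.58. Tbx5, a factor of the transgene, was at 10.72 and 9.31 in TTg hearts, against 6.42 and 7.47 in Ctrl hearts at 3 months. The features do not separate transgene from endogenous transcripts. Some hearts stood apart in other tissues' genes. Replicate 1 of Ctrl at 2 months held the fat gene Adipoq at 10.34, against at most 4.83 elsewhere, and the skeletal muscle gene Myh1 at 7.59, against at most 3.97. Replicate 2 of Ctrl at 3 months held the atrial gene Myl7 at 3.45, against at least 9.73 elsewhere. Values without these arrays are given below where they bear on 1 of the 10 genes. The 10 genes lay between 4.29 and 12.04, below the top of the scale, and 0 had a mean under the 30th percentile of all features (3.65).

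**Figure D1:**
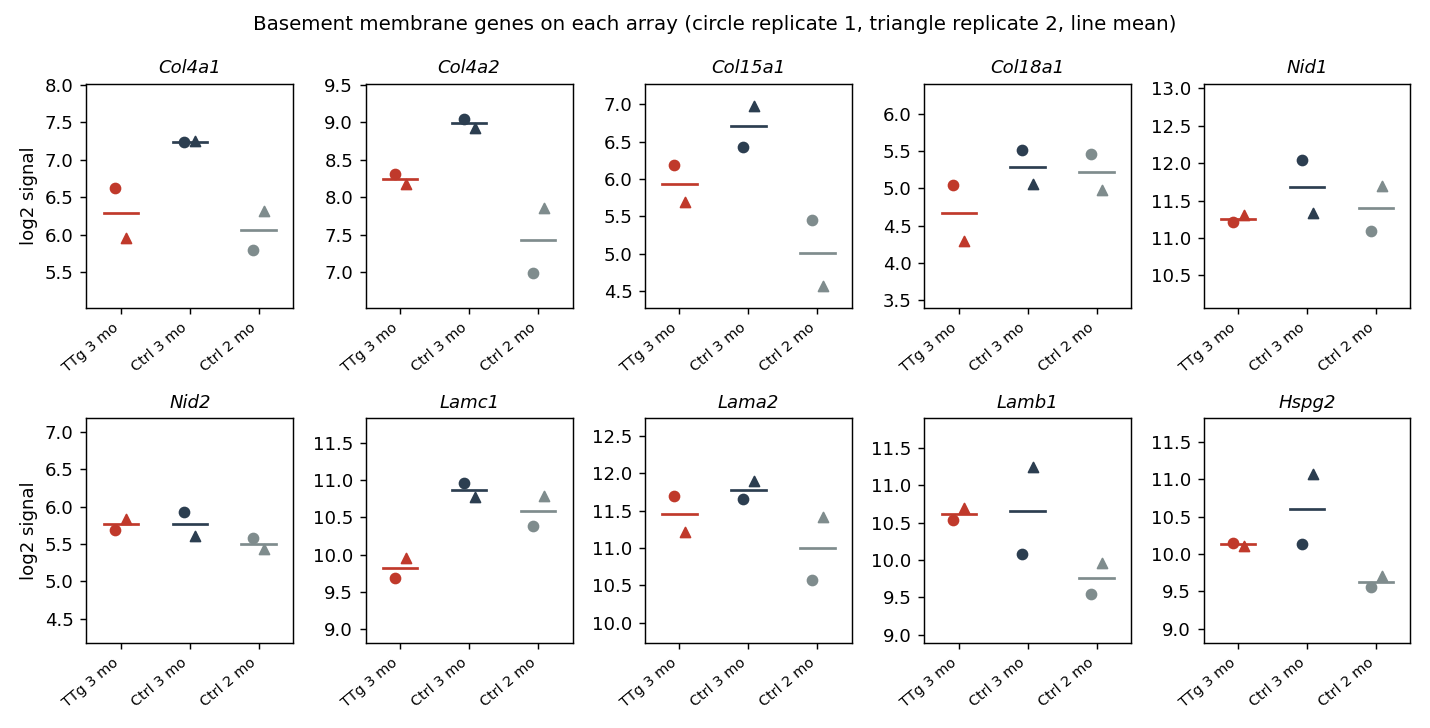
Log2 signal (vertical axis, 3 log2 units in each panel) of the 10 genes on 6 arrays, with TTg at 3 months, Ctrl at 3 months and Ctrl at 2 months from left to right. Circles are replicate 1, triangles replicate 2 and lines group means. The Ctrl 3-month mean is the highest of the 3 in each panel, though by only 0.005 over TTg for Nid2, and for Nid2 and Lamb1 not after quantile normalization, nor for Nid2 after median centring. Both Ctrl 3-month arrays lie above all others for Col4a1, Col4a2 and Col15a1.

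At 3 months, TTg was set against Ctrl to ask what differed in hearts with the transgene. TTg hearts had the lower mean for all 10 genes with the deposited values, but for 8 of 10 after quantile normalization, where Nid2 and Lamb1 turned, and for 8 of 10 after median centring, where Nid2 turned and Lamb1 was at 0. Over all features the mean was lower in TTg for 48.3% and higher for 50.9%. The largest differences were those of Lamc1, with a 2.06-fold lower mean in TTg, and of Col4a1, with a 1.95-fold lower mean. The median difference of the 10 genes was −0.54 on the log2 scale, against 0.01 over all features. In limma's test, adjusted by Benjamini-Hochberg over all features, 0 of 10 genes passed an adjusted p under 0.05 (smallest 0.646), and 0.0045% of all features did. At an unadjusted p under 0.05, limma gave 2 of the 10 genes and 7.47% of all features. The values of both groups did not overlap for 6 of the 10 genes, each lower in TTg, whereas 19.3% of all features were lower and 19.1% higher in TTg without overlap.

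The comparison of Ctrl at 3 months with Ctrl at 2 months follows the untreated infarct over time. Hearts at 3 months had the higher mean for 10 of 10 genes, and over all features the mean was higher for 50.5% and lower for 48.8%. The means were 3.24-fold higher for Col15a1, 2.96-fold for Col4a2 and 2.28-fold for Col4a1, and 1.05-fold for Col18a1. The median difference was 0.85, against 0.01 over all features. None passed limma (0 of 10, smallest adjusted p = 0.406), as against 0.0045% of all features. At an unadjusted p under 0.05 there were 4 of 10 genes and 8.0% of features. The groups did not overlap for 7 genes, each higher at 3 months, and 18.3% of all features were higher and 17.4% lower without overlap. Without Ctrl 2-month replicate 1, the array with the fat and skeletal muscle genes, the median was 0.53 and 1 gene, Nid1, had a lower mean at 3 months (−0.015).

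Both comparisons use the Ctrl 3-month arrays, with opposite signs, so they are not separate evidence of each other. With the deposited values the Ctrl 3-month mean was the highest of the 3 groups for 10 of 10 genes and for 31.5% of all features. TTg hearts at 3 months and Ctrl hearts at 2 months differ in both genotype and time. Between them, 7 genes had a higher and 3 a lower mean in TTg, against 52.1% and 47.3% of all features, and the median was 0.36 against 0.02 over all features. Without overlap, 5 genes were higher in TTg (21.2% of all features) and 1, Lamc1, was lower (18.9%). In this comparison limma passed 0 of 10 genes (smallest adjusted p = 0.425) and 0.0% of features, and at an unadjusted p under 0.05 there were 3 of 10 genes and 9.71% of features.

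**Figure D2:**
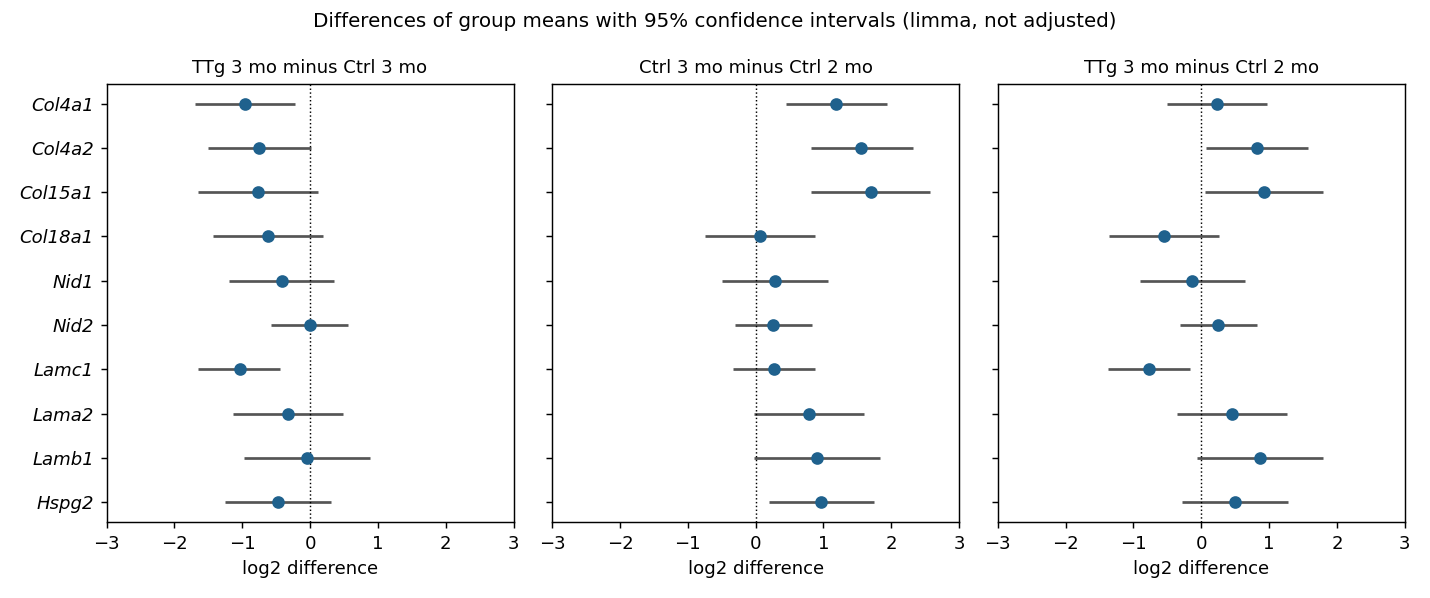
Log2 difference of group means (horizontal axis) for each of the 10 genes in 3 comparisons. Points are limma estimates and bars their 95% confidence intervals, not adjusted for the number of features. The interval lies below 0 for Col4a1 and Lamc1 in TTg minus Ctrl at 3 months, and above 0 for Col4a1, Col4a2, Col15a1 and Hspg2 in Ctrl at 3 minus 2 months.

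Col4a1 and Col4a2 encode the alpha 1 and alpha 2 chains, which assemble with each other into the type IV collagen found in nearly all basement membranes. They are neighbours on chromosome 8, at chr8:11198423-11312889 for Col4a1 on the minus strand and chr8:11312805-11449287 for Col4a2 on the plus strand (GRCm38.p6). RefSeq's promoter windows are placed on starts 21 bases apart, at position 11312826 for Col4a1 and 11312805 for Col4a2, on opposite strands. From these starts the first bases of both transcripts overlap. The gene span of Col4a1 given above runs further, to 11312889, and the windows do not use that end. Drawn from 250 bases before to 50 bases after each window start, they share 78 bases, chr8:11312777-11312854. Both are printed because the pair is described as a unit, each 5′ to 3′ on its own gene's strand, with the shared stretch in capitals.
Col4a1 promoter, chr8:11312777-11313076, minus strand: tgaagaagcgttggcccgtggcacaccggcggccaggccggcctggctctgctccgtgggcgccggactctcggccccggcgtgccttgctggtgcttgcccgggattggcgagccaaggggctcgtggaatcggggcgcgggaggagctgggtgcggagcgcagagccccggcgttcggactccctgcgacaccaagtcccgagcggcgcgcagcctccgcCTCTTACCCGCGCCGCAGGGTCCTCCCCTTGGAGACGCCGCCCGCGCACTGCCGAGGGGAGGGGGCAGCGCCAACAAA
Col4a2 promoter, chr8:11312555-11312854, plus strand: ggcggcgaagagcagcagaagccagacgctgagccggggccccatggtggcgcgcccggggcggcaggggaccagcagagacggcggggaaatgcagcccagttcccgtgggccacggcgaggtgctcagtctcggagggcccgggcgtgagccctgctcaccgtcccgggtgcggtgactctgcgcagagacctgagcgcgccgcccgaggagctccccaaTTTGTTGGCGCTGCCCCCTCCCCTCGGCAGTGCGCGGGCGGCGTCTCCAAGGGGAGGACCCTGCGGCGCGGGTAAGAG

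The capitals of the Col4a1 window are the reverse complement of those of the Col4a2 window. The shared stretch holds 1 GC box (GGGCGG, searched on both strands), at chr8:11312812-11312817, where both transcripts overlap. Over its whole window, Col4a1 holds 1 GC box and 1 CCAAT box (CCAAT), and Col4a2 holds 3 GC boxes and 1 CCAAT box. Neither window holds a TATA box (TATAAA). A GC box is present in 35.7% of the 32851 RefSeq mouse promoter windows of this length, a CCAAT box in 37.4% and a TATA box in 13.6%. The windows are 74.0% G or C for Col4a1 and 73.7% for Col4a2, against a median of 52.7%. RefSeq windows were matched for 8 of the 10 genes, all but Lamc1 and Nid2. The other 6 genes have windows of their own that share no bases with these. Among those, Hspg2 holds 5 GC boxes and 0 CCAAT boxes, and Col15a1 holds 0 of either.

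Col4a1 had log2 signals of 6.62 and 5.95 in TTg hearts, 7.24 and 7.25 in Ctrl hearts at 3 months, and 5.79 and 6.32 in Ctrl hearts at 2 months. The Ctrl 3-month arrays were nearly equal and lay above all others, while TTg and Ctrl at 2 months overlapped. TTg differed from Ctrl at 3 months by −0.96 ± 0.31 (SE, n = 2 arrays per group here and below), with a 95% interval of −1.7 to −0.22 and an adjusted p of 0.661 in limma. Ctrl at 3 months differed from Ctrl at 2 months by 1.19 ± 0.31 (0.45 to 1.93, adjusted p = 0.477 in limma).

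Col4a2 had 8.31 and 8.18 in TTg hearts, 9.05 and 8.93 in Ctrl hearts at 3 months, and 6.99 and 7.86 in Ctrl hearts at 2 months. The 3 groups did not overlap, with Ctrl at 3 months highest and Ctrl at 2 months lowest. The difference was −0.75 ± 0.32 for TTg against Ctrl at 3 months (−1.5 to 0.01, adjusted p = 0.666 in limma) and 1.56 ± 0.32 for Ctrl at 3 against 2 months (0.81 to 2.32, adjusted p = 0.406 in limma). Against Ctrl at 2 months, TTg differed by 0.82 ± 0.32 for Col4a2 and by 0.23 ± 0.31 for Col4a1. Without Ctrl 2-month replicate 1 these were 0.38 and −0.035, and without TTg replicate 1 Col4a1 was at −0.1, so its sign depended on those arrays. In the other comparisons both genes kept their direction with any array left out. Col4a1 then ran from −1.3 to −0.62 and Col4a2 from −0.81 to −0.68 for TTg against Ctrl at 3 months.

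**Figure D3:**
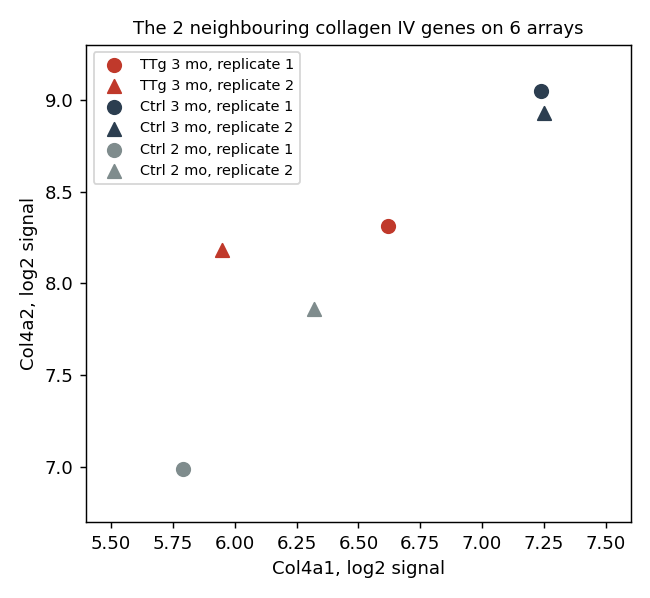
Col4a2 (vertical axis) against Col4a1 (horizontal axis), log2 signal on each of 6 arrays, coloured by group, with circles for replicate 1 and triangles for replicate 2. The Ctrl 3-month arrays sit together at the upper right, at 7.24 and 7.25 for Col4a1, and the other 4 arrays lie below them for both genes.

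Over the 6 arrays Col4a1 and Col4a2 had a Pearson r of 0.897 (two-sided exact permutation test over 720 pairings, p = 0.0167) and a Spearman rho of 0.886 (exact permutation p = 0.0333). No other relation was tested. The pair was chosen with earlier results known, and the test treats the 6 arrays as exchangeable although they form 3 groups, so a difference between groups that both genes share also gives a high r. Without the Ctrl 3-month arrays, the 2 farthest from the median of Col4a1, r was 0.696 over 4 arrays (exact permutation p = 0.25). With 4 arrays this test has too few pairings to go under 0.05, so it cannot decide whether the relation rests on those arrays. With 5 arrays the p was no longer under 0.05 without either Ctrl 3-month array, Ctrl 2-month replicate 1 or TTg replicate 1 (r 0.853 to 0.897, exact permutation p 0.05 to 0.1). Many features follow the same course, and Col4a2 ranked 180 among 22205 other features by r with Col4a1. The log2 distance of Col4a2 over Col4a1 was 1.69 and 2.23 in TTg, 1.81 and 1.68 in Ctrl at 3 months, with 1.2 and 1.54 in the 2-month Ctrl hearts. It was smaller on both 2-month arrays than on the other 4.

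The other type IV collagen genes also lie in pairs, Col4a3 beside Col4a4 and Col4a5 beside Col4a6. Their chains are known from the kidney glomerulus, lung and other special basement membranes. Col4a3 was at 5.3 and 5.07 in TTg, 6.36 and 5.77 in Ctrl at 3 months, with 6.38 and 6.65 in the 2-month Ctrl hearts. It was lower in TTg than in both Ctrl groups without overlap, by −0.88 ± 0.28 against Ctrl at 3 months (adjusted p = 0.661 in limma). Its partner Col4a4 differed by 0.005 ± 0.29, Col4a5 by 0.14 ± 0.24 and Col4a6 by −0.11 ± 0.31. Over the 6 arrays r was 0.537 for Col4a3 with Col4a4 and 0.297 for Col4a5 with Col4a6, as a description. RefSeq places the starts of Col4a5 and Col4a6 1343 bases apart.

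Genes further along chromosome 8 gave a mixed course around the pair. The nearest measured gene before Col4a1 is Irs2, an adaptor of the insulin receptor, at chr8:10984681-11008929. It differed by −2.94 ± 0.67 in TTg against Ctrl at 3 months and by 3.22 ± 0.67 in Ctrl at 3 against 2 months, the same signs as Col4a1 and Col4a2 (adjusted p = 0.646 and 0.406 in limma). Beyond it, 3930402G23Rik differed by −0.095 and Tnfsf13b by −0.085 in TTg against Ctrl at 3 months. After Col4a2, Rab20 differed by 0.24, Naxd by −0.18 and Cars2 by 0.13. In Ctrl at 3 against 2 months, Rab20, a small GTPase, differed by −0.93 ± 0.38, opposite to the collagen pair (adjusted p = 0.604 in limma).

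Laminins are trimers of an alpha, a beta and a gamma chain. Lamc1 encodes the gamma 1 chain, which is part of most laminins. Lamc1 was at 9.69 and 9.95 in TTg hearts, 10.96 and 10.77 in Ctrl hearts at 3 months, and 10.39 and 10.79 in Ctrl hearts at 2 months. Both TTg arrays were below all 4 Ctrl arrays, and the Ctrl groups overlapped. TTg differed by −1.04 ± 0.26 from Ctrl at 3 months (−1.65 to −0.44, adjusted p = 0.646 in limma) and by −0.77 ± 0.26 from Ctrl at 2 months (adjusted p = 0.425 in limma). With any array left out the first difference ran from −1.18 to −0.91 and the second from −0.97 to −0.57. Ctrl at 3 and 2 months differed by 0.27 ± 0.26.

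Lama2 encodes the alpha 2 chain of the laminin that surrounds muscle fibres, and its loss causes muscular dystrophy in mice and people. It was at 11.69 and 11.22 in TTg, 11.66 and 11.9 in Ctrl at 3 months, with 10.57 and 11.42 in the 2-month Ctrl hearts. TTg overlapped with both Ctrl groups, and the Ctrl groups were apart. The difference was −0.33 ± 0.34 for TTg against Ctrl at 3 months, and 0.78 ± 0.34 for Ctrl at 3 against 2 months (−0.02 to 1.59), or 0.36 without Ctrl 2-month replicate 1.

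Lamb1 encodes the beta 1 chain. It was at 10.54 and 10.7 in TTg, 10.08 and 11.24 in Ctrl at 3 months, with 9.55 and 9.96 in the 2-month Ctrl hearts. The TTg values lay between those of the Ctrl 3-month arrays, and both 3-month groups were above Ctrl at 2 months. TTg differed from Ctrl at 3 months by −0.04 ± 0.39 (−0.97 to 0.89), which was 0.54 without Ctrl 3-month replicate 2, the array low in atrial genes, and −0.62 without replicate 1. Ctrl at 3 months differed from 2 months by 0.91 ± 0.39 (adjusted p = 0.632 in limma), or 0.33 without Ctrl 3-month replicate 2.

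Of the 8 other laminin chain genes 7 were measured. Lama4, whose chain is typical of vessels, was at 12.15 and 12.17 in TTg, 12.23 and 12.51 in Ctrl at 3 months, with 11.69 and 11.51 in the 2-month Ctrl hearts. Lamb2, for the beta 2 chain of mature muscle, was at 12.24 and 12.26 in TTg, 11.96 and 12.26 in Ctrl at 3 months, with 10.86 and 11.66 in the 2-month Ctrl hearts. Both genes were higher in each 3-month group than in Ctrl at 2 months without overlap. Lamb2 was lowest on replicate 1 of Ctrl at 2 months, the array with the fat and skeletal muscle genes. TTg differed from Ctrl at 3 months by −0.21 ± 0.23 for Lama4 and 0.14 ± 0.31 for Lamb2, and from Ctrl at 2 months by 0.56 ± 0.23 and 0.99 ± 0.31. Lama5 differed from Ctrl at 3 months by −0.60 ± 0.35, Lamb3 by −0.70 ± 0.42, Lama1 by 0.37 ± 0.22, Lama3 by −0.14 ± 0.37 and Lamc3 by 0.02 ± 0.39. In limma 0 of the 7 other laminin chain genes passed in any comparison (smallest adjusted p = 0.414).

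Nidogens bind both laminin and type IV collagen. Nid1 was at 11.21 and 11.31 in TTg, 12.04 and 11.33 in Ctrl at 3 months, with 11.09 and 11.7 in the 2-month Ctrl hearts. The higher TTg array was just below the lower Ctrl 3-month array, and both lay within the Ctrl 2-month range. Its difference from Ctrl at 3 months was −0.42 ± 0.33, and −0.07 without Ctrl 3-month replicate 1. Nid2 was at 5.68 and 5.84 in TTg, 5.93 and 5.6 in Ctrl at 3 months, with 5.58 and 5.43 in the 2-month Ctrl hearts. It spanned 0.5 over all 6 arrays, the narrowest span of the 10 genes. TTg and Ctrl at 3 months differed by −0.005 ± 0.24 for Nid2 (−0.57 to 0.56), so the data bound this difference to less than 1 log2 unit either way.

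Hspg2 encodes perlecan, a large heparan sulfate proteoglycan of vessel and muscle basement membranes. It was at 10.15 and 10.11 in TTg, 10.13 and 11.07 in Ctrl at 3 months, with 9.56 and 9.7 in the 2-month Ctrl hearts. Ctrl 3-month replicate 2 stood above the other 5 arrays, and replicate 1 equalled TTg. TTg differed from Ctrl at 3 months by −0.47 ± 0.33, which was 0.0 without Ctrl 3-month replicate 2 and −0.94 without replicate 1. Ctrl at 3 months was above Ctrl at 2 months by 0.97 ± 0.33 (0.19 to 1.75, adjusted p = 0.547 in limma), or 0.50 without Ctrl 3-month replicate 2.

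Col15a1 and Col18a1 encode related collagens that carry sugar chains, join basement membranes to the matrix beside them, and release endostatin-like fragments from their ends. Col15a1 was at 6.18 and 5.69 in TTg, 6.43 and 6.98 in Ctrl at 3 months, with 5.45 and 4.57 in the 2-month Ctrl hearts. The 3 groups did not overlap and had the same order as for Col4a2. Its differences were −0.77 ± 0.37 for TTg against Ctrl at 3 months (−1.65 to 0.11), 1.7 ± 0.37 for Ctrl at 3 against 2 months (0.82 to 2.57, adjusted p = 0.406 in limma) and 0.92 ± 0.37 for TTg against Ctrl at 2 months.

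Col18a1 took another course. It was at 5.04 and 4.29 in TTg, 5.51 and 5.06 in Ctrl at 3 months, with 5.46 and 4.97 in the 2-month Ctrl hearts. The Ctrl groups lay within the same range, with a difference of 0.07 ± 0.34, and TTg was at −0.62 ± 0.34 from Ctrl at 3 months (−1.43 to 0.19, adjusted p = 0.731 in limma) and −0.55 ± 0.34 from Ctrl at 2 months. Without TTg replicate 2, its lowest array, the difference from Ctrl at 3 months was −0.24. RefSeq lists 2 starts for Col18a1, at positions 77166530 and 77113705 of chromosome 10, and the array feature does not separate them here.

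**Figure D4:**
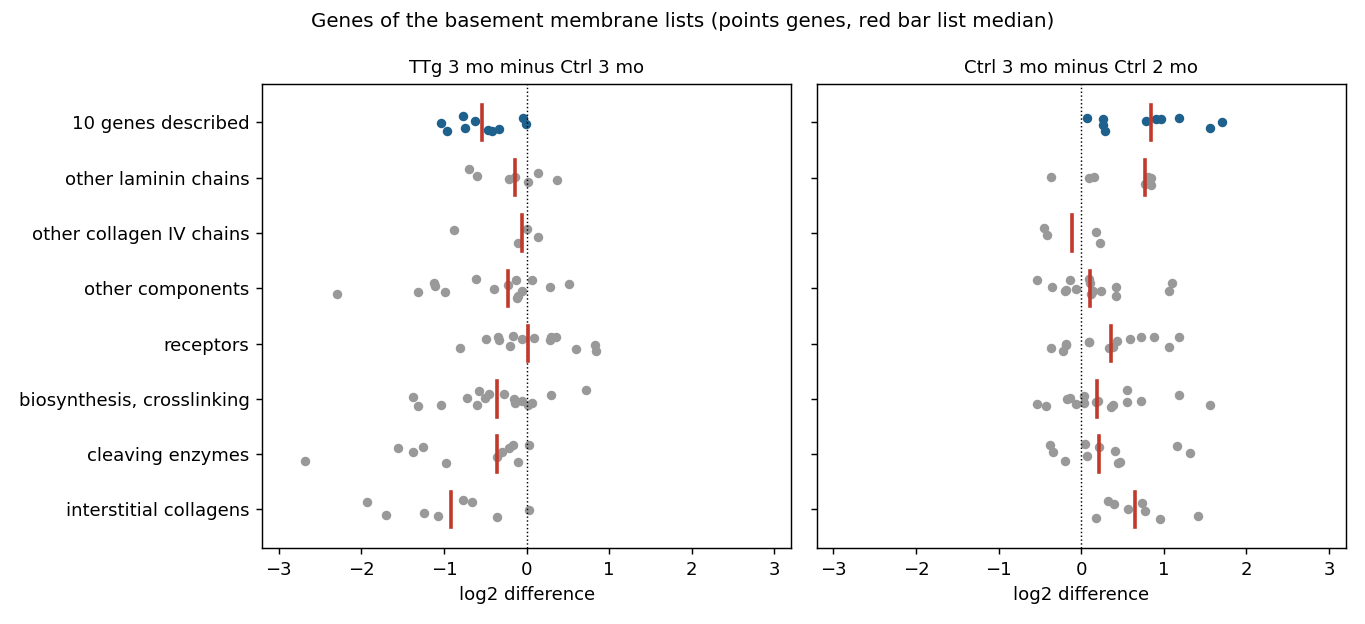
Log2 differences (horizontal axis) of the 10 genes and of 7 lists of related genes, for TTg minus Ctrl at 3 months (left) and Ctrl at 3 minus 2 months (right). Points are genes and red bars list medians. The medians of the 10 genes are −0.54 and 0.85, and those of the interstitial collagens −0.92 and 0.66.

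Related genes were described by lists, of which 0 genes passed limma in any comparison. In the list for biosynthesis and crosslinking of type IV collagen, 12 of 16 measured genes had a lower mean in TTg than in Ctrl at 3 months (median −0.36). P4ha1, a catalytic subunit of collagen prolyl 4-hydroxylase, differed by −1.32 ± 0.33 (adjusted p = 0.646 in limma), at 11.11 and 11.22 in TTg against 12.9 and 12.08 in Ctrl. P3h2, a prolyl 3-hydroxylase that acts on type IV collagen, differed by −1.38 ± 0.49, at 7.64 and 7.05 in TTg against 8.82 and 8.63 in Ctrl. Neither overlapped between these groups. Against Ctrl at 2 months TTg differed by −0.14 for P4ha1 and 0.17 for P3h2, so the high values were again those of Ctrl at 3 months. Crtap, a partner of prolyl 3-hydroxylation, differed by −1.04 ± 0.67 with overlap. Pxdn, peroxidasin, which crosslinks type IV collagen, differed by 0.02 ± 0.55.

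Of 15 other basement membrane components, 12 had a lower mean in TTg than in Ctrl at 3 months (median −0.23). Fbln1, a fibulin, differed by −2.29 ± 0.76, Sparc, a collagen-binding glycoprotein, by −1.32 ± 0.59, and Tinagl1 by −1.12 ± 0.32. Tinagl1 was at 9.42 and 9.45 in TTg, 10.84 and 10.28 in Ctrl at 3 months, with 9.15 and 9.86 in the 2-month Ctrl hearts, the same course as Col4a1. The 14 measured genes of the receptor list, which includes genes of the dystrophin complex, split evenly, 7 higher and 7 lower, with a median of 0.02. Bcam, a receptor for laminin alpha 5, differed by 0.84 ± 0.37 and Sgcb, a sarcoglycan of the dystrophin complex, by 0.83 ± 0.28. The collagen receptor gene Itga2 differed by −0.81 ± 0.49 with overlap, at 4.28 and 4.49 in TTg against 6.0 and 4.38 in Ctrl. Of 11 enzymes that can cleave basement membrane, 10 had a lower mean in TTg (median −0.36). Mmp3 was at −2.68 ± 0.50, Adamts1 at −1.56 ± 0.84 and Mmp14 at −1.37 ± 0.45. Adamts1 overlapped between the groups, at 8.4 and 8.97 in TTg against 11.74 and 8.76 in Ctrl at 3 months.

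Interstitial collagens, a list of fibre-forming and type VI collagen genes, had a lower mean in TTg for 7 of 8 genes (median −0.92), all but Col6a1 (0.035 ± 0.34). Col3a1 differed by −1.93 ± 0.85, Col1a2 by −1.70 ± 0.82, with overlap, and Col5a2 by −1.24 ± 0.35. The order of replicates differed between these and the basement membrane genes. Replicate 1 was the higher of its pair for 8, 7 and 7 of the 8 interstitial collagens in TTg, Ctrl at 3 months and Ctrl at 2 months. For the 10 basement membrane genes it was the higher for 6, 5 and 3. Fibroblast markers were higher in replicate 1 for 5 of 5 in each group. This difference between lists was not tested.

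**Figure D5:**
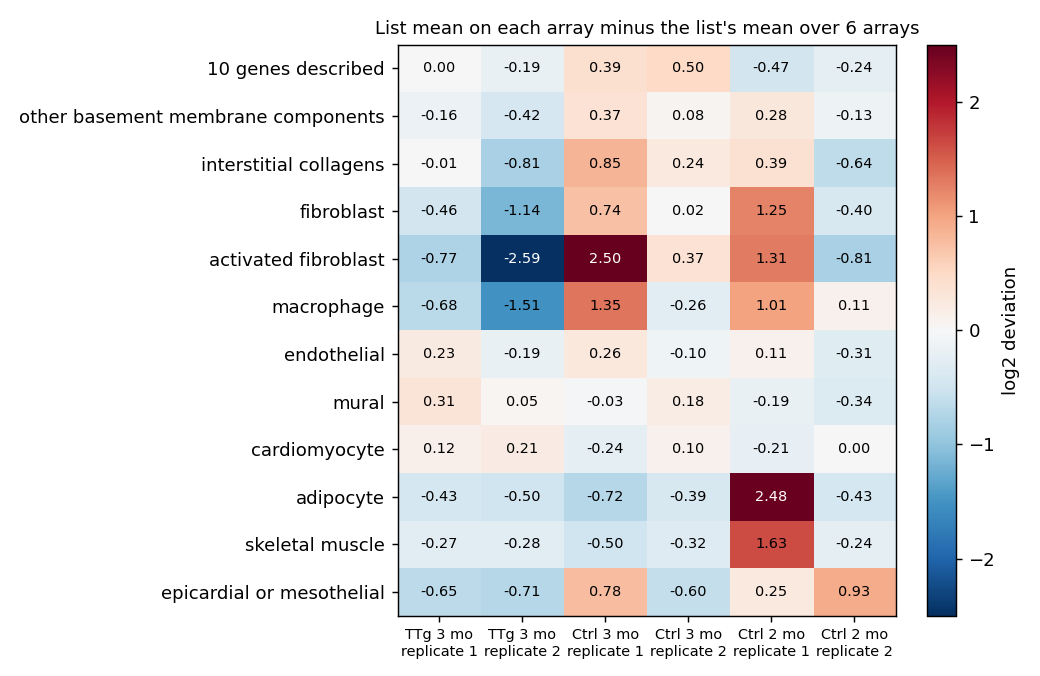
Mean log2 signal of each list on each array (columns) minus that list's mean over the 6 arrays, in log2 units, with red above and blue below. The 10 genes are at 0.39 and 0.50 on the Ctrl 3-month arrays, whereas activated fibroblast genes are at 2.5 and 0.37 there, and fat and skeletal muscle genes stand out at 2.48 and 1.63 on replicate 1 of Ctrl at 2 months.

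Markers of the cells that make basement membrane were set beside these results. Endothelial markers had list means of 10.78 and 10.36 in TTg, 10.81 and 10.45 in Ctrl at 3 months, with 10.66 and 10.24 in the 2-month Ctrl hearts, and 5 of 8 had a lower mean in TTg than in Ctrl at 3 months (median −0.05). Mural cell markers were at 9.84 and 9.58, 9.50 and 9.71, and 9.34 and 9.19, with 5 of 9 lower (median −0.23). The endothelial list means overlapped in each comparison, but single markers went in opposite directions. In Ctrl at 3 against 2 months 3 were higher and 1 lower without overlap, against 18.3% and 17.4% of all features. There Kdr differed by 1.5 ± 0.33, Cdh5 by 0.44 ± 0.31 and Emcn by −0.97 ± 0.39. In TTg against Ctrl at 3 months these differed by 0.64, −0.26 and 0.015. Fibroblast markers were at 13.48 and 12.80 in TTg and 14.68 and 13.96 in Ctrl at 3 months, lower in TTg for 5 of 5 (median −1.0), and activated fibroblast markers were at 6.49 and 4.67 against 9.76 and 7.63, also 5 of 5 (median −3.09). Cardiomyocyte markers were at 19.04 and 19.13 against 18.68 and 19.02, with 5 of 7 higher in TTg. The other 2, Myl2 and Pln, had the same value on all 6 arrays near the top of the scale (19.93 and 19.89), and Tnnt2 and Actc1 were also above 19 on every array, so differences in this list may be compressed. Macrophage markers, 5 of 5 lower, were at 8.92 and 8.09 against 10.95 and 9.34. The part of any of these cell types in the values of the 10 genes was not tested. In Ctrl at 3 against 2 months, activated fibroblast markers had a median of 0.82, with 4 of 5 higher. Mural markers had a median of 0.69, with 6 of 9 higher and list means that did not overlap. Single mural markers went in opposite directions, 4 higher and 1 lower without overlap (18.3% and 17.4% of all features). The 3 with a lower mean were Kcnj8 (−1.01 ± 0.23, without overlap), Abcc9 (−0.4 ± 0.6) and Rgs5 (−0.11 ± 0.32). Fibroblast markers had a median of −0.04 (2 of 5 higher), endothelial markers 0.19 (4 of 8) and macrophage markers −0.3 (2 of 5). Fat markers, with a median of −1.32, and skeletal muscle markers, with −0.96, were lower for 4 of 4 and 5 of 5 genes. Replicate 1 of Ctrl at 2 months was above replicate 2 for all of them, by a median of 2.56 and 1.3. The groups did not overlap for 2 and 4 of them (17.4% of all features). On replicate 2, Adipoq (3.98) and Tnnt3 (4.35) were below both Ctrl 3-month arrays (4.09 and 4.83, 4.57 and 5.04), and Cidec (4.11) lay between them (3.76 and 4.64).

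The genes whose course over the 6 arrays was most like the mean of the 10, by Pearson's r among 19495 others, were Tspan9 (0.9925), 4933402J07Rik (0.9918), Jazf1 (0.9907), Tnks1bp1 (0.9907) and Fbxl14 (0.9899). Tspan9, a tetraspanin of the cell membrane, was at 12.42 and 12.03 in TTg, 13.17 and 13.4 in Ctrl at 3 months, with 11.55 and 11.73 in the 2-month Ctrl hearts. With 6 arrays in 3 groups such values are a description, and 50 genes reached an r of 0.95.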

How the data were processed

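The authors deposited log2 signals, 1 value per array feature and array, for 6 arrays of 6 hearts. The submitters' processing notes list Transcriptome Analysis Console 4.0. The summary, background and normalization methods are not given in the sources used here. Biotin-labelled cDNA was made from total RNA, per the labels' protocols. Precision is limited by the number of arrays, 2 per group. An exact test of 2 against 2 arrays cannot go below p = 0.333.

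All 22206 features, 19572 of them with 1 symbol and 2634 with none, were fitted without further normalization with limma 3.58.1 in R 4.3.3. The model had 1 coefficient per group (3 residual and 4.13 prior degrees of freedom). Tests were two-sided, with Benjamini-Hochberg adjustment over all features of a comparison and a threshold of 0.05. Errors are standard errors of this fit. The pipeline was tested on simulated data. Correlations were tested by exact permutation in scipy 1.17.1.

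The 10 genes and the lists were chosen with earlier results of these data known. Of 141 list genes 129 were measured, in 7 pathway and 10 cell marker lists. The text names all 10 genes, the other laminin and type IV collagen chains, the 3 largest differences of each other pathway list, the 3 measured neighbours on each side of the collagen pair, the 5 most similar genes and leading cell markers. Pxdn and the atrial, fat and skeletal muscle genes given per array were picked after their values were seen. Promoter windows are RefSeq's for GRCm38.p6.

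As alternatives, values were median centred or quantile normalized, the prior was made robust or given an intensity trend, and features were limited to those above the 30th percentile or with 1 symbol, or averaged per symbol. Further fits used only the groups compared, added a replicate block, or left out each array. The count of genes with a lower mean was added as a result for these alternatives after seeing the data.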

Additional observations from a re-analysis of the deposited data

How the results depend on the processing

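No alternative passed any of the 10 genes in any comparison (0 of 450 values, smallest adjusted p = 0.17 in limma), and of those values 436 kept their direction and 14 turned. For TTg against Ctrl at 3 months, Nid2 was at 0.046 with quantile normalization and 0.035 with median centring, and Lamb1 at 0.002 with quantile normalization. With 1 array left out Nid2 ran from −0.17 to 0.16 and Lamb1 from −0.62 to 0.54. For Ctrl at 3 against 2 months, Nid1 ran from −0.065 to 0.65 and Col18a1 from −0.18 to 0.32, the median of the 10 genes from 0.53 to 1.08 and the genes with a lower mean from 0 to 2. For TTg against Ctrl at 2 months, Col4a1 ran from −0.1 to 0.57 and Nid1 from −0.44 to 0.17. The median for TTg against Ctrl at 3 months stayed between −0.69 and −0.46 in all 15 alternatives. The number of features called, 1 for TTg against Ctrl at 3 months, was 2 with the compared groups alone and 0 to 2 with 1 array left out. For Ctrl at 3 against 2 months it was 1, then 0 with an intensity trend, with quantile normalization and without dim features, and 0 to 6 with 1 array left out. For TTg against Ctrl at 2 months it was 0, then 1 with a robust prior and 0 to 22 with 1 array left out. The cause was not tested. With the replicate block the counts were 11, 1 and 5 in the 3 comparisons, and none of the 10 genes passed. The sample titles link arrays of different groups only by replicate number. Replicate 1 minus replicate 2 correlated over features at 0.12 to 0.14 between groups. Fibroblast and macrophage markers were higher in replicate 1 for 5 of 5 in each group, and the 10 genes for 6, 5 and 3. Whether equal numbers mark a shared preparation was not tested. The r of Col4a1 with Col4a2 ran from 0.853 to 0.993 with 1 array left out (exact permutation p 0.0333 to 0.1) and was 0.696 without the 2 farthest arrays.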

Other observations

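The list of receptors for basement membrane includes genes of the dystrophin complex. Of its 14 measured genes, 6 were higher and 2 lower in TTg hearts than in Ctrl hearts at 2 months without overlap. Of all features, 21.2% were higher and 18.9% lower without overlap. TTg at 3 months and Ctrl at 2 months differ in both genotype and time. In limma 0 of the 14 passed (smallest adjusted p = 0.389), and 5 had an unadjusted p under 0.05, against 9.71% of all features. The 3 with the highest differences, which were picked after their values were seen, bind laminin. Dag1, dystroglycan, was at 16.08 and 16.12 in TTg, 15.36 and 16.28 in Ctrl at 3 months, with 14.38 and 15.15 in the 2-month Ctrl hearts. It differed by 1.34 ± 0.38 in TTg against Ctrl at 2 months (adjusted p = 0.391 in limma) and by 0.28 ± 0.38 against Ctrl at 3 months. Itga6, the integrin alpha 6 chain, was at 11.21 and 10.6 in TTg, 11.16 and 10.75 in Ctrl at 3 months, with 9.25 and 10.29 in the 2-month Ctrl hearts. Itga7, the main laminin integrin chain of muscle, was at 9.03 and 9.14 in TTg, 7.95 and 9.03 in Ctrl at 3 months, with 7.56 and 7.97 in the 2-month Ctrl hearts. All 3 genes were lowest on replicate 1 of Ctrl at 2 months, the array with the fat and skeletal muscle genes. Their differences without that array are not given here. Ctrl at 3 months differed from Ctrl at 2 months by 1.06 ± 0.38 for Dag1, 1.18 ± 0.40 for Itga6 and 0.72 ± 0.38 for Itga7. The other genes of this list higher without overlap were Bcam and the sarcoglycan genes Sgcb and Sgcd, and those lower were Itgb4 and Ddr2.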
